A study of Mus musculus with 12 samples.

Results

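Histone methyltransferases and the JmjC histone demethylases are described here in splenic B cells with and without LSD1, as 43 genes of 9842 in the deposited expression table. Members were taken by gene symbol alone. The symbols were those beginning with Kdm2 to Kdm8, Kmt2 to Kmt5, Setd, Ehmt, Suv39h, Ezh or Nsd1 to Nsd3, together with Dot1l, Ash1l, Eed, Suz12, Jmjd6, Riox1 and Riox2. The amine oxidase demethylases Kdm1a (LSD1 itself) and Kdm1b were left out by the same rule. The mouse reference gene table holds 52 genes that fit it. The other 9 (Ezhip, Kdm4d, its pseudogene Kdm4dl, Kdm5d, Kdm6b, Setd1a, Setd1b, Setd7 and Suv39h2) were not in the table and are not analysed here.

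Lysine methyltransferases with a SET domain, and the unrelated enzyme DOT1L, add methyl groups to the tails and core of the histones. JmjC demethylases remove them with oxygen, iron and 2-oxoglutarate, whereas LSD1 uses a flavin cofactor and acts only on mono- and dimethylated lysine. The marks divide the genome by function. H3K4 methylation marks promoters and enhancers, H3K36 and H3K79 methylation mark transcribed gene bodies, and H3K9 and H3K27 methylation mark silenced chromatin. H3K27 methylation is laid down by Polycomb repressive complex 2 (PRC2), made of EZH2 or EZH1 with EED and SUZ12, and EZH2 is known in B cells for its part in proliferating germinal centre cells.

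The study compared the transcriptome of female C57BL/6J mice labelled wild type or LSD1 knockout, before and after B cells were driven towards the marginal zone fate. TrB_WT and TrB_KO were transitional B cells taken from the spleen and sorted, with no stimulation, as B220+ CD93+ cells without Thy1.1, CD11b and the macrophage antigen that Adgre1 encodes. The other groups, eMZB_WT and eMZB_KO, were ex vivo-derived marginal zone B cells, which were transitional cells kept for 3 days with BAFF, a cytokine that B cells need to survive, and DL1, a ligand of Notch receptors, and then sorted as B220+ CD21+ CD1d+ with the same exclusions. Each group had 3 libraries, each made from 2000 cells. How the deletion was driven, the age of the mice and whether replicates came from separate animals is not given in the sources used here. Each p-value thus sets a difference between groups only against the spread of these libraries, and that spread could be technical.

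Levels are FPKM (fragments per transcript length and library size) divided by 1 factor per library, called scaled FPKM below, and means carry ± SD over n = 3 libraries. Changes are differences of log2(scaled FPKM + 1), which understates the change of low genes, with the standard error (SE) of a limma fit over all 12 libraries. A gene was called when its p, adjusted by Benjamini and Hochberg over all 9842 genes, was under 0.05. Read totals behind the FPKM values ran from 7.24 to 19.3 M reads, and single members rested on 19 to 3714 reads per library. The scaling matters for direction, because as deposited the median gene itself was shifted by 0.52 on the log2 scale for LSD1 loss in TrB and by 0.67 between the cell types in wild type. Every change is therefore relative to the median gene. TrB_KO replicate 3 stood apart, with 61.6% of its reads in the listed genes and 285 of them at 0. Kdm1a was low in the knockouts, at 2.53 to 3.35 scaled FPKM, but the libraries labelled TrB_WT replicate 3 (3.47) and eMZB_WT replicate 3 (4.68) lay below the other wild-type libraries (7.53 to 8.63). With all libraries the Kdm1a difference missed the threshold in limma, at -0.87 (adjusted p = 0.249) for TrB and -1.10 (adjusted p = 0.148) for eMZB. Cd93, the sorting marker of transitional cells, had 4.17 to 6.05 in TrB and 0.697 to 1.10 in eMZB, and Cr2 (CD21) had 7.79 to 15.3 in TrB and 60.9 to 70.7 in eMZB. Cd1d1 (CD1d), also a sorting marker of eMZB, overlapped in wild type, at 19.8 to 24.8 in TrB and 22.5 to 23.0 in eMZB. In knockout it had 22.4 to 22.9 in TrB and 25.4 to 31.0 in eMZB.

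The table lists only genes with at least 1 FPKM in 3 or more libraries, which by itself favours detection. All 43 members were detected in every group at moderate levels. The median of their group means lay between 4.97 and 5.20 scaled FPKM in the 4 groups, beside 4.28 to 4.34 over all listed genes. Kmt2e, an MLL-family protein that reads trimethylated H3K4, and Eed, the PRC2 subunit that binds H3K27 trimethylation, were the most abundant, with means over all libraries of 13.3 and 12.2. In TrB_WT the Kmt2e libraries (14.2 to 14.6) lay wholly above those of Eed (8.48 to 10.7). The order was the reverse in eMZB_KO, where Eed had 13.2 to 14.1 and Kmt2e 10.6 to 11.3. In eMZB_WT their ranges overlapped. At the low end stood Setd4, a SET domain protein (1.57), Nsd2, an H3K36 methyltransferase (1.69), and Kmt2b, an H3K4 methyltransferase (1.72).

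Levels per transcript length are given next for the highest and lowest members of the larger classes. Among writers of H3K9 methylation Ehmt2 (G9a) was highest, at a mean of 7.33 over all libraries, and Setdb2 lowest, at 3.65. Among writers of H3K36 methylation Setd2, which makes the trimethylated form, had 7.996, against 1.69 for Nsd2. Kmt5c, one of the enzymes that methylate H4K20 further, had 5.40, and Dot1l, the H3K79 methyltransferase, had 2.51. Among the remaining SET domain proteins Setd5 had 4.91. On the side of the demethylases Kdm2a (H3K36) had 8.40, Kdm5c (H3K4) had 7.66, Kdm6a (H3K27) had 7.17 and Kdm3a (H3K9) had 6.43. The lowest of their classes were Kdm4c at 4.92, Kdm5b at 4.37 and the oxygenase Riox1 at 2.39. Replicates of members were about as tight as those of all genes, with a median SD on the log2 scale of 0.155 (wild type) and 0.159 (knockout) in TrB and of 0.0783 and 0.0938 in eMZB, beside 0.172, 0.182, 0.117 and 0.106 over all genes.

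Loss of LSD1, an H3K4 demethylase, was compared with wild type in each cell type to ask whether other enzymes of histone methylation changed at the RNA level. No member was called. The count was 0 of 43 in TrB, where 0.498% of all genes were called, and 0 of 43 in eMZB, where 0.406% were. At these backgrounds a count of 0 among 43 genes is near the share of all genes. At an unadjusted p under 0.05 limma gave 2 members in TrB and 2 in eMZB, against 9.91% and 5.39% of all genes, and voom on recovered reads also called 0 in both cell types, where it called 0.213% and 0.528% of all genes. The same held as deposited, where 0.193% of all genes were called in TrB and 0.152% in eMZB. The 95% interval of each member's change lay between -1 and 1 on the log2 scale in both cell types, with half-widths from 0.17 to 0.57, so changes smaller than these widths were not resolved.

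**Figure D1:**
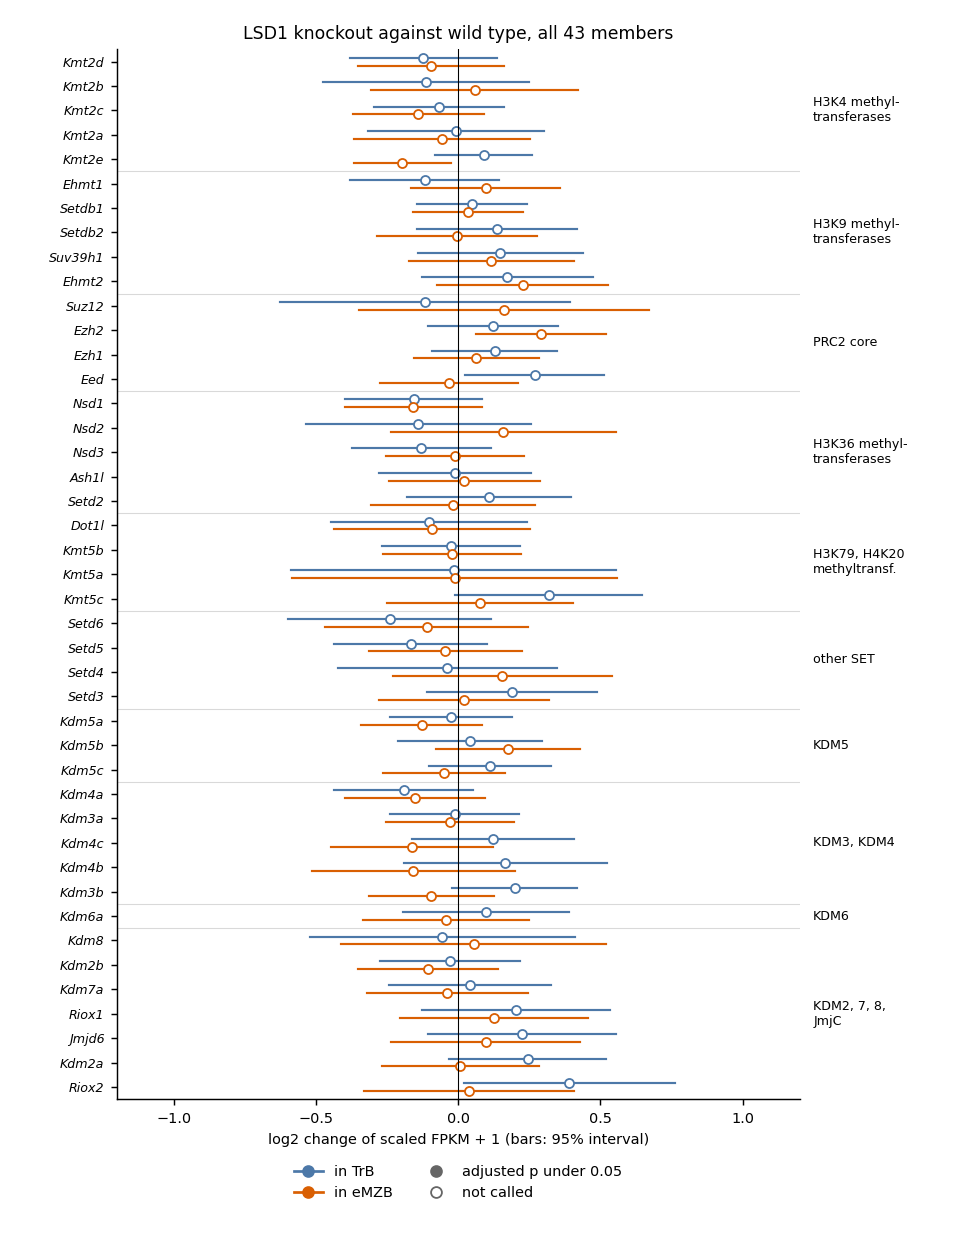
Log2 change with LSD1 loss (x axis, scaled FPKM + 1) of each of the 43 members, listed by class of enzyme, with blue points for TrB and orange for eMZB and bars for the 95% interval of the limma fit. All points are open, since none was called, and they lie between -0.24 and 0.39 in TrB and between -0.20 and 0.29 in eMZB. As deposited, without scaling, the median of all members in TrB was 0.57, beside 0.04 after scaling. Of the members named for TrB, Setd6, Kdm4a and Setd5 changed sign, and signs of the unnamed members are not given.

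In TrB, 22 members had a positive and 21 a negative change, with a median of 0.04 beside 0.01 for all genes. Riox2, a nucleolar oxygenase that hydroxylates a ribosomal protein, had the highest value, 0.39 (SE 0.17, adjusted p = 0.470). Its TrB_WT libraries had 2.66, 5.10 and 4.63 scaled FPKM and its TrB_KO libraries 5.67, 5.98 and 5.07. These ranges overlapped, because replicate 2 of the wild type lay just above the lowest knockout library. Without TrB_WT replicate 1 the change of Riox2 was 0.16. Of its exonic bases 22.4% lie opposite exons of Crybg3, and the kit does not mark strand. Kmt5c changed by 0.32 (SE 0.15) and Eed by 0.27 (SE 0.11, adjusted p = 0.436). Eed was higher in every TrB_KO library (11.01 to 12.8) than in any TrB_WT library (8.48 to 10.7), as was Kdm3b, so 2 of 43 members had groups that did not overlap, against 10.5% of all genes. At the other end stood Setd6 at -0.24, Kdm4a at -0.19 and Setd5 at -0.17, all with overlapping libraries and with the opposite sign as deposited (0.22, 0.36 and 0.37).

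In eMZB, 19 members had a positive and 24 a negative change, with a median of -0.01. Ezh2, the main catalytic subunit of PRC2, had 5.03, 4.73 and 5.85 scaled FPKM in eMZB_WT and 6.29, 7.25 and 6.19 in eMZB_KO. All knockout libraries lay above all wild-type ones, and the change was 0.29 (SE 0.10, unadjusted p = 0.0168, adjusted p = 0.687 by limma). The summed level of 24 proliferation genes was also higher in the knockout without overlap, at 218 to 230 against 190 to 212 in eMZB and 117 to 127 against 96.7 to 110 in TrB. With LSD1 loss 1 of the 24 was called in TrB, Mcm6 (0.67, adjusted p = 0.0469), and 0 in eMZB, and their part in the Ezh2 values was not tested. Kmt2e ran the other way, from 13.3, 11.99 and 12.6 to 10.6, 11.3 and 10.8, again with no overlap, and its change was -0.20 (SE 0.08, adjusted p = 0.805). Ehmt2 changed by 0.23, Kdm5b by 0.17, Kdm4c by -0.16 and Kdm4b by -0.16, each with an interval that held 0. In all, 6 of 43 members had groups without overlap, against 18.4% of all genes. All 5 members of the KDM3 and KDM4 families, which demethylate H3K9 and in part H3K36, had negative values in eMZB, from -0.16 to -0.03, and none was called.

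The difference between the LSD1 effects in both cell types was tested as an interaction, eMZB minus TrB. It was called for 0 of 43 members and for 0.0102% of all genes. Kmt2e alone had an unadjusted p under 0.05, at -0.29 (SE 0.11, adjusted p = 0.686), against 6.85% of all genes. The most negative values were -0.35 for Riox2, -0.32 for Kdm4b and -0.30 for Eed, and the most positive were 0.30 for Nsd2, 0.28 for Suz12 and 0.21 for Ehmt1. Suz12 and Ehmt1 changed sign as deposited, where the median of all members was -0.49, beside -0.03 after scaling.

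Markers of other cell types moved with genotype. Of 7 macrophage and monocyte markers 4 were listed, and their summed level was 12.4 to 14.2 in TrB and 13.0 to 23.0 in eMZB of the wild type, and 51.1 to 64.6 and 50.6 to 58.4 in the same cells of the knockout. Ly6c2, which activated lymphocytes also express, made up most of it in the knockout (46.8 to 60.1 in TrB_KO). Itgam, Adgre1 and Cd68 were at 0.180 to 3.57 in every library, and none of the 4 was at 0. Itgam (CD11b) was higher in knockout without overlap in both cell types, at 0.991 to 1.25 against 0.180 to 0.376 in eMZB. Adgre1 was lower in TrB_KO (0.976 to 1.61) than in TrB_WT (2.05 to 2.43), and its ranges overlapped in eMZB. Those of Cd68 overlapped in both cell types. In eMZB other lists differed between genotypes too. The summed level of 5 plasma cell markers was 49.1 to 58.3 in wild type and 34.4 to 41.8 in knockout, with Prdm1 at 1.45 to 1.78 and 0.810 to 0.973. Lck, the 1 of 7 T cell markers listed, was 6.13 to 6.75 in wild type and 7.57 to 8.51 in knockout. Hbb-bs, the 1 of 3 erythroid markers listed, was 0.551 to 0.880 in wild type and 1.45 to 1.66 in knockout. In TrB Hbb-bs ran the other way, at 2.09 to 2.60 in wild type and 0.920 to 1.93 in knockout. The plasma cell sums overlapped there, at 31.8 to 53.6 and 47.7 to 97.6, as did Lck. The part of all these markers in the members' values was not tested. In sorted bulk samples fewer cells of a type and less RNA per cell cannot be told apart.

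Between the cell types some members were called, at shares near those of all genes. In wild type 9 of 43 were called, 20.9%, beside 27.4% of all genes, and in knockout 10 of 43, 23.3%, beside 27.4%. In eMZB_WT 5 were higher (14.6% of all genes) and 4 lower (12.7%), and in eMZB_KO 4 were higher (14.2%) and 6 lower (13.2%). As deposited the counts were 6 in wild type, all higher (Eed, Kdm2b, Setd3, Setd6, Kmt5a and Riox1), beside 19.3% of all genes, and 0 in knockout, beside 4.67%. Higher in eMZB_WT were Riox1, Setd6, Eed, Kdm2b and Setd3, and lower were Kdm7a, Ash1l, Kdm3a and Kdm5b. Higher in eMZB_KO were Setd6, Riox1, Kdm2b and Ezh2, and lower were Kdm7a, Kdm3b, Kdm3a, Kmt2e, Ash1l and Kdm5a. The members' shares were near the background and slightly below it. The members' median absolute change was 0.17 in wild type and 0.22 in knockout beside 0.25 and 0.24 for all genes. The count fell to 5 in wild type without eMZB_WT replicate 3, to 4 without both wild-type libraries of low Kdm1a, and to 6 in knockout without eMZB_KO replicate 3. The share of all genes called in those fits is not given here.

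**Figure D2:**
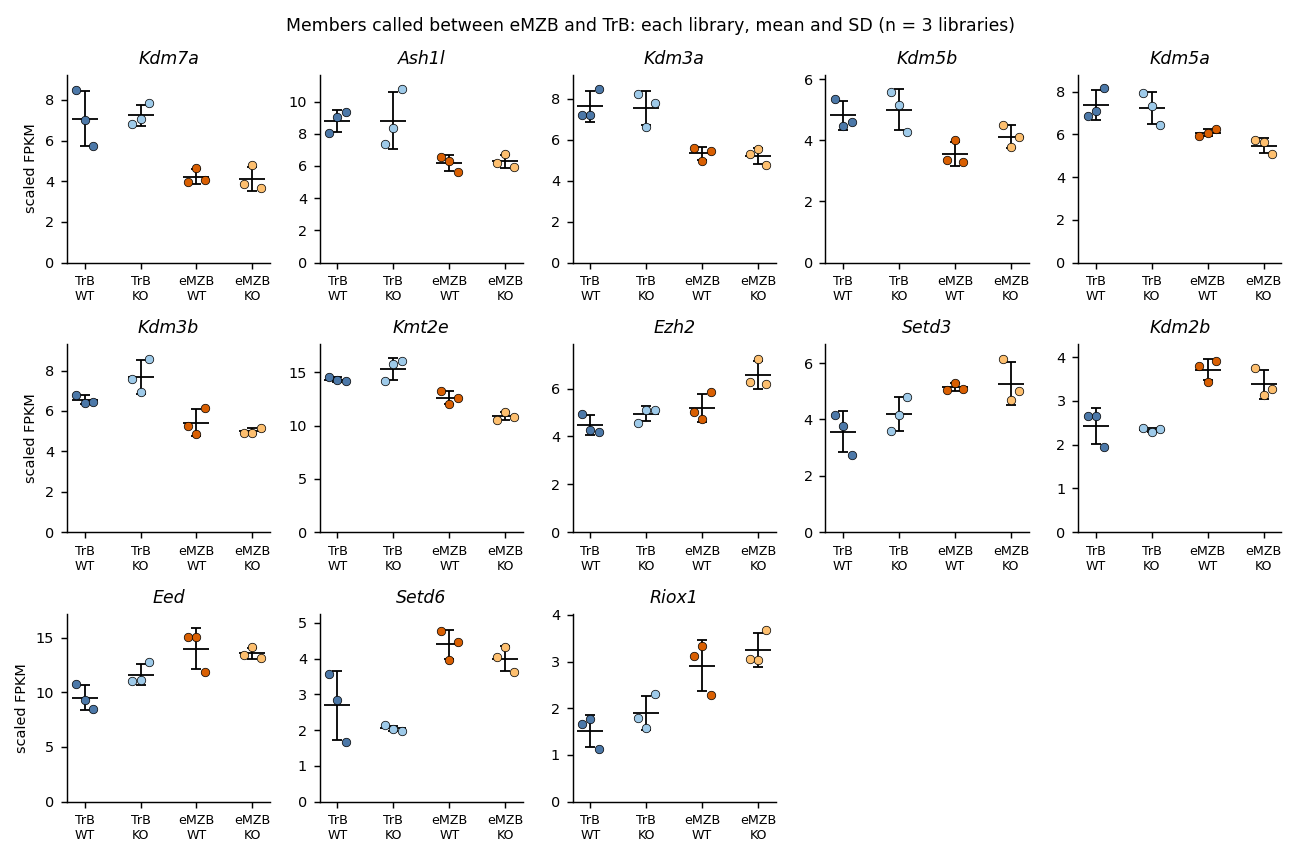
Scaled FPKM (y axis, from 0) of the 13 members called between eMZB and TrB in either genotype, with 1 point per library and bars for the mean and SD of 3 libraries. Kdm7a, Ash1l, Kdm3a, Kdm3b, Kmt2e and Kdm5a are lower in every eMZB library than in any TrB library. Kdm2b and Setd6 are higher in every eMZB library, and Riox1 is higher in eMZB within each genotype. All falls are relative to the median gene. In wild type those of Kdm7a, Ash1l, Kdm3a and Kdm5b change sign on the deposited scale. Signs on that scale are not given for Kdm3b, Kmt2e and Kdm5a in wild type.

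Among the demethylases that fell, Kdm7a (Entrez 338523, chromosome 6, 39136620 to 39206773, mm10) was the member with the most negative change in both genotypes. It encodes an enzyme that removes dimethylation from H3K9 and H3K27. In wild type its levels were 8.47, 7.02 and 5.75 in TrB and 3.96, 4.65 and 4.08 in eMZB. In knockout they were 6.82, 7.08 and 7.83 in TrB and 3.86, 4.79 and 3.67 in eMZB. No eMZB library reached any TrB library. The change was -0.62 (SE 0.13, adjusted p = 0.00412) in wild type and -0.70 (SE 0.13, adjusted p = 0.00191) in knockout, and it was called in each of 12 fits that left out 1 library. As deposited it was 0.11 in wild type and not called.

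Kdm3a (Entrez 104263, chromosome 6, 71588970 to 71632990), an H3K9 demethylase that hypoxia induces in many cells, fell in both genotypes as well. It had 7.20, 7.19 and 8.48 in TrB_WT and 5.60, 4.95 and 5.43 in eMZB_WT. In knockout it had 8.22, 6.63 and 7.81 in TrB and 5.28, 5.55 and 4.78 in eMZB. Cell types were again fully separate. The change was -0.44 (SE 0.10, adjusted p = 0.00748) in wild type, with the opposite sign as deposited (0.31), and -0.46 (SE 0.10, adjusted p = 0.00590) in knockout, and both were called in all 12 fits with 1 library left out.

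Kdm3b (Entrez 277250), the closest relative of Kdm3a, was called lower in knockout alone, from 7.58, 6.92 and 8.60 to 4.93, 4.90 and 5.17, a change of -0.53 (SE 0.10, adjusted p = 0.00203). In wild type it went from 6.81, 6.42 and 6.45 to 5.27, 4.87 and 6.15, also without overlap, and -0.24 (adjusted p = 0.1001) was not called. Upper-quartile scaling did call this fall (-0.29, adjusted p = 0.0355 by limma). The difference between genotypes did not pass (-0.29, SE 0.14, adjusted p = 0.753). The kit does not mark strand, and 24.6% of the exonic bases of Kdm3b lie opposite exons of Gm26538, so reads of both cannot be told apart there. The remaining members of these families, Kdm4a, Kdm4b and Kdm4c, were called in neither genotype by limma on scaled values. Weights by library did call Kdm4c in wild type (0.32, adjusted p = 0.0478).

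Of the 3 H3K4 demethylases of the KDM5 family 1 was called in each genotype. Kdm5b (Entrez 75605, chromosome 1, 134560178 to 134632878) was called in wild type, from 5.37, 4.47 and 4.61 to 3.35, 4.01 and 3.28, a change of -0.36 (SE 0.12, adjusted p = 0.0386), with 0.34 as deposited. It lost its call in 6 of 12 fits that left out a library, among them each that left out TrB_WT replicate 1 or 3 or eMZB_WT replicate 1 or 3 (adjusted p up to 0.126), also when the 2 groups were fitted alone (adjusted p = 0.0591) and without both wild-type libraries of low Kdm1a (adjusted p = 0.133). In knockout its groups overlapped (4.26 to 5.59 and 3.78 to 4.50). Kdm5a (Entrez 214899, chromosome 6, 120364099 to 120444574) was called in knockout, from 7.92, 7.33 and 6.42 to 5.72, 5.63 and 5.08, a change of -0.34 (SE 0.10, adjusted p = 0.0209). In wild type its ranges, 6.85 to 8.15 and 5.90 to 6.25, did not overlap either, but -0.24 had adjusted p = 0.0894. Kdm5c, on the X chromosome, was not called, at 0.07 and -0.09. The call of Kdm5a was lost without TrB_KO replicate 1 or 2 or eMZB_KO replicate 3.

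Of the H3K36 enzymes Ash1l (Entrez 192195, chromosome 3, 88950414 to 89079375), a trithorax-group methyltransferase, fell in both genotypes. It had 8.05, 9.05 and 9.36 in TrB_WT and 6.57, 6.32 and 5.63 in eMZB_WT, a change of -0.45 (SE 0.12, adjusted p = 0.0161). In knockout it had 7.33, 8.36 and 10.8 and then 6.18, 6.74 and 5.92, a change of -0.42 (SE 0.12, adjusted p = 0.0234). No TrB library overlapped an eMZB library. The wild-type call was lost without eMZB_WT replicate 3 (the highest adjusted p over libraries left out was 0.0665) and without both wild-type libraries of low Kdm1a (-0.36, adjusted p = 0.125), and the sign was positive as deposited (0.31). The knockout call was lost without TrB_KO replicate 3 or eMZB_KO replicate 1 or 3, and when the 2 groups were fitted alone (adjusted p = 0.0518). All 5 H3K36 methyltransferases had negative values in wild type, from -0.45 to -0.0013, and 4 were not called. Nsd1 had -0.28 in each genotype, with no overlap between its groups and adjusted p of 0.0821 and 0.0834.

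Kmt2e (Entrez 69188, chromosome 5, 23433036 to 23504235) was the H3K4-group member that changed. In knockout it fell from 14.2, 15.8 and 16.1 to 10.6, 11.3 and 10.8, a change of -0.46 (SE 0.08, adjusted p = 0.00102), and it was called in all 12 fits with 1 library left out. In wild type it went from 14.6, 14.3 and 14.2 to 13.3, 11.99 and 12.6, also fully separate, with -0.17 (SE 0.08, adjusted p = 0.125). Upper-quartile scaling called this fall (-0.23, adjusted p = 0.0360 by limma). The interaction was given above and did not pass. The 4 other listed MLL-type genes, Kmt2a, Kmt2b, Kmt2c and Kmt2d, which carry H3K4 methyltransferase activity, were called in neither genotype by limma on scaled values. With the length adjustment given below, Kmt2d was called higher in both.

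Turning to the members that rose, Setd6 (Entrez 66083, chromosome 8, 95715634 to 95721507) encodes a methyltransferase known for modifying the NF-kB subunit RelA. It had 3.57, 2.85 and 1.66 scaled FPKM in TrB_WT and 4.76, 3.96 and 4.46 in eMZB_WT. The knockout libraries had 2.13, 2.04 and 1.98 in TrB and 4.03, 4.32 and 3.63 in eMZB. Its lowest eMZB library lay above its highest TrB library. Changes were 0.58 (SE 0.16, adjusted p = 0.0201) in wild type and 0.71 (SE 0.16, adjusted p = 0.00669) in knockout, on 20 to 190 reads per library. The wild-type call was lost without eMZB_WT replicate 1 or 3, when the 2 groups were fitted alone (adjusted p = 0.0597) and without both wild-type libraries of low Kdm1a (0.35, adjusted p = 0.101).

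Riox1 (Entrez 71952, chromosome 12, 83950608 to 83952953) encodes a JmjC oxygenase of the nucleolus that hydroxylates a protein of the large ribosomal subunit and has also been described as an H3K4 and H3K36 demethylase. It had 1.66, 1.77 and 1.12 in TrB_WT and 3.12, 3.33 and 2.29 in eMZB_WT. For the knockout the values were 1.80, 1.58 and 2.30 before culture and 3.06, 3.02 and 3.67 after it. Within each genotype the cell types did not overlap. The change was 0.64 (SE 0.15, adjusted p = 0.00814) in wild type and 0.56 (SE 0.15, adjusted p = 0.0157) in knockout. Its reads numbered 19 to 182 per library, 31.9% of its exonic bases lie opposite Gm26571, and voom on recovered reads gave adjusted p = 0.0502 in wild type. The knockout call was lost without TrB_KO replicate 2 or eMZB_KO replicate 3.

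Kdm2b (Entrez 30841, chromosome 5, 122870664 to 122989270) encodes an H3K36 demethylase that binds unmethylated CpG islands and brings a variant Polycomb complex there. It rose from 2.66, 2.66 and 1.95 in TrB_WT to 3.79, 3.44 and 3.91 in eMZB_WT, a change of 0.47 (SE 0.11, adjusted p = 0.00902). In knockout it rose from 2.37, 2.29 and 2.35 to 3.76, 3.13 and 3.27, a change of 0.39 (SE 0.11, adjusted p = 0.0223). Both cell types were separate in both genotypes. Bcor, a partner of KDM2B in that complex, moved the opposite way, from a mean of 5.45 to 3.22 in wild type (-0.60, adjusted p = 0.00488) and from 6.15 to 3.64 in knockout (-0.61, adjusted p = 0.00468). Pcgf1, another partner, fell in wild type, from 4.77 to 2.58 (-0.73, adjusted p = 0.0279), and was not called in knockout. The wild-type call of Kdm2b was lost without both wild-type libraries of low Kdm1a (0.33, adjusted p = 0.0804). Its knockout call was lost without TrB_KO replicate 2 or eMZB_KO replicate 1 or 3.

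Setd3 (Entrez 52690, chromosome 12, 108106431 to 108179345), whose product methylates a histidine of actin, rose in wild type from 4.17, 3.76 and 2.75 to 5.04, 5.31 and 5.09, a change of 0.44 (SE 0.14, adjusted p = 0.0302). In knockout, where 0.27 was not called, its ranges overlapped. Weights by library in limma did call Setd3 there (0.35, adjusted p = 0.0267). The wild-type call was lost without TrB_WT replicate 3 or any one eMZB_WT library, with adjusted p up to 0.096, and without both wild-type libraries of low Kdm1a (adjusted p = 0.161).

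In the PRC2 core 1 of 4 subunits rose in each genotype. Eed (Entrez 13626, chromosome 7, 89954654 to 89980976) had 10.7, 9.28 and 8.48 in TrB_WT and 15.03, 15.1 and 11.9 in eMZB_WT, a change of 0.51 (SE 0.11, adjusted p = 0.00489), called in all 12 fits with 1 library left out. In knockout it had 11.01, 11.1 and 12.8 and then 13.4, 14.1 and 13.2, still apart, with 0.21 (adjusted p = 0.193). Weights by library in limma did call Eed there (0.25, adjusted p = 0.0454). Ezh2 (Entrez 14056, chromosome 6, 47530274 to 47595270) showed the complementary calls. It rose in knockout from 4.58, 5.12 and 5.13 to 6.29, 7.25 and 6.19, a change of 0.35 (SE 0.10, adjusted p = 0.0263), and in wild type it went from 4.95, 4.27 and 4.18 to 5.03, 4.73 and 5.85, where the ranges overlapped and 0.18 was not called (adjusted p = 0.221). Neither difference between genotypes passed (Eed -0.30, adjusted p = 0.786, and Ezh2 0.17, adjusted p = 0.868). The knockout call of Ezh2 was lost without TrB_KO replicate 1 or eMZB_KO replicate 1 or 2.

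Suz12, the scaffold of PRC2, had 7.31, 7.17 and 3.11 in TrB_WT and 8.74, 7.45 and 6.22 in eMZB_WT. Its knockout libraries had 6.18, 4.37 and 4.69 in TrB and 7.36, 8.63 and 9.33 in eMZB. The wild-type groups overlapped and the knockout groups did not. Its change of 0.64 in knockout (SE 0.23, adjusted p = 0.0611) was not called, but voom on recovered reads called it (0.78, adjusted p = 0.0183). Ezh1, the alternative catalytic subunit, lay between 5.54 and 7.81 in all 12 libraries and was not called. The summed level of the 4 subunits went from 21.6 to 29.0 in TrB_WT up to 29.5 to 34.4 in eMZB_WT, and from 26.4 to 30.4 in TrB_KO up to 32.7 to 36.04 in eMZB_KO.

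Proliferation genes moved with the cell type beside these members. Of 24 such genes, among them Mki67, Top2a and the Mcm helicase genes, 22 rose in eMZB_WT and 23 in eMZB_KO, and their summed level was 96.7 to 110 in TrB_WT against 190 to 212 in eMZB_WT, and 117 to 127 in TrB_KO against 218 to 230 in eMZB_KO. The part of proliferation genes in the values of Ezh2, Eed and Suz12 was not tested. Kmt5a, which monomethylates H4K20 and whose protein is controlled through the cell cycle, had changes of 0.56 in wild type and 0.57 in knockout that were not called (adjusted p = 0.131 and 0.135). Its wild-type libraries were spread over 1.21 to 4.53 in TrB and 3.20 to 5.40 in eMZB and overlapped. These missing calls depend on the processing. Kmt5a was called in wild type as deposited (1.17, SE 0.39, adjusted p = 0.0293) and without TrB_WT replicate 2 (0.87, adjusted p = 0.0183). In knockout it was called when the 2 groups were fitted alone (adjusted p = 0.00871), with weights by library (0.0337), without TrB_WT replicate 3 (0.0238) and without both wild-type libraries of low Kdm1a (0.0107).

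**Figure D3:**
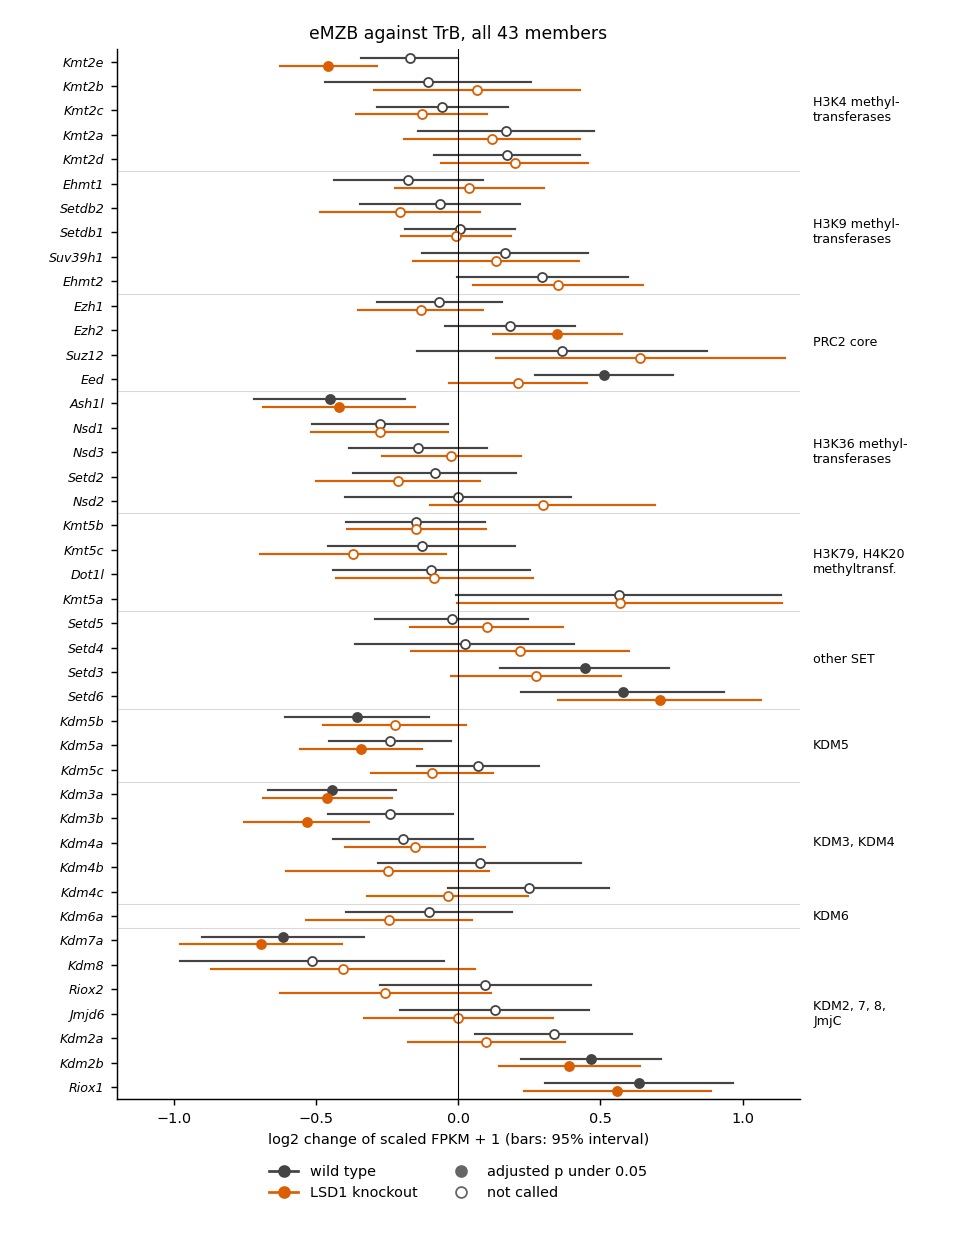
Log2 change between eMZB and TrB (x axis, scaled FPKM + 1) of each of the 43 members, listed by class of enzyme, with dark points for wild type, orange points for LSD1 knockout and bars for the 95% interval of the limma fit. Filled points mark the 9 members called in wild type and the 10 called in knockout. Setd6, Riox1 and Kdm2b lie to the right and Kdm7a, Kdm3a and Ash1l to the left in both genotypes. The negative wild-type values of Kdm7a, Kdm8, Ash1l, Kdm3a and Kdm5b change sign on the deposited scale. Signs of the other negative wild-type values on it are not given. On that scale the median of all members in wild type was 0.67, beside -0.02 after scaling.

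The calls of both genotypes were set side by side. Of 43 members 6 were called in the same direction in both (Kdm2b, Setd6, Riox1, Kdm3a, Ash1l and Kdm7a), beside 18.8% of all genes. By limma on scaled values, 3 were called in wild type alone (Eed, Setd3 and Kdm5b) and 4 in knockout alone (Ezh2, Kmt2e, Kdm5a and Kdm3b). For none of these 7 did the interaction pass, with adjusted p from 0.686 to 0.920. This split depends on the processing, since upper-quartile scaling called Kdm3b and Kmt2e in wild type too. Weights by library called Eed and Setd3 in knockout too. The remaining 30 members were called in neither genotype by limma on scaled values. Groups did not overlap in 17 members in wild type, against 45.1% of all genes, and in 18 in knockout, against 43.9%.

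Several classes had no called member. None of the 5 H3K9 methyltransferases, none of the 4 writers of H3K79 and H4K20 methylation, and not the H3K27 demethylase Kdm6a, was called between the cell types by limma on scaled values, beside 27.4% of all genes in each genotype. At an unadjusted p under 0.05 there were 0 of them in wild type among the H3K9, H3K79 and H4K20 writers and 2 in knockout (Ehmt2 and Kmt5c). The share of all genes at that threshold is not given here for the cell type contrasts. Alternatives did call members of these classes. Voom on recovered reads called Kmt5c in knockout (-0.47, adjusted p = 0.0334), weights by library called Ehmt2 in knockout (0.43, adjusted p = 0.00278), leaving out TrB_WT replicate 3 called Dot1l in wild type (-0.32, adjusted p = 0.0490), and Kmt5a is given above. Ehmt2 came nearest among the H3K9 writers, with 6.03, 6.32 and 8.22 in TrB_KO and 9.18, 8.48 and 9.19 in eMZB_KO, a change of 0.35 (adjusted p = 0.0800), without overlap. Kdm8, a JmjC protein linked to proteolysis and hydroxylation, had the next most negative wild-type value after Kdm7a, -0.52 (SE 0.21, adjusted p = 0.0936), and 0.09 as deposited. It had 2.34, 2.69 and 4.03 in TrB_WT and 2.10, 1.27 and 2.02 in eMZB_WT, on 23 to 317 reads. Jmjd6, Riox2 and Kdm2a, with the same catalytic fold, were not called by limma on scaled values. Weights by library did call Kdm2a in wild type (0.26, adjusted p = 0.0419).

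Promoter sequences are shown for Kdm7a, the member with the most negative cell type change in both genotypes, and for Setd6 and Riox1, those with the most positive changes among called members. Each is the 250 bases before the transcript start that the RefSeq promoter table (GRCm38.p6) uses, written 5′ to 3′ on the gene's strand. For Kdm7a and Riox1 that start is the 5′ end of the gene span given above, and for Setd6 it is 95715913, which lies 279 bases inside the span. Capitals mark a match to the ETS motif CCGGAAG.
Kdm7a, chr6:39206774-39207023, minus strand: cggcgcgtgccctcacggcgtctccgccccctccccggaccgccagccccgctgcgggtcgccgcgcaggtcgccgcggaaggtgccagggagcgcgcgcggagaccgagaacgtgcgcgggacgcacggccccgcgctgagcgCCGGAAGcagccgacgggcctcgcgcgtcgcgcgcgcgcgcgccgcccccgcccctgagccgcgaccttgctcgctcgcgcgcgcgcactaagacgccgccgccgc
Setd6, chr8:95715663-95715912, plus strand: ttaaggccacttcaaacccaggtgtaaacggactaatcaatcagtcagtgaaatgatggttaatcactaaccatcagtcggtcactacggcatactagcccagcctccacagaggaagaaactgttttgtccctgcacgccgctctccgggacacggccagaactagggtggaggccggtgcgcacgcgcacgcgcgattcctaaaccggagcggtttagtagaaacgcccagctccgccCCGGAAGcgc
Riox1, chr12:83950358-83950607, plus strand: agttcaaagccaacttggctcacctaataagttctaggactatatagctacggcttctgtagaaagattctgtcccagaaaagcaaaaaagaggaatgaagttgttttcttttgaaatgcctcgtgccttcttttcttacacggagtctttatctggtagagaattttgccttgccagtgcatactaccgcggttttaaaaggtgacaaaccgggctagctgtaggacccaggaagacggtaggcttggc
These promoters differ in composition. That of Kdm7a holds 56 CpG dinucleotides, that of Setd6 20 and that of Riox1 7, beside a median of 20 over 45 promoters of the 33 members matched by symbol, 16 over promoters of all listed genes and 6 over all promoters of the reference table. The ETS match lies 106 bases before that start in Kdm7a and 10 bases before it in Setd6. Riox1 holds none of the motifs searched.

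Motifs searched on both strands were the E-box CACGTG, the core TGGGAA bound by the Notch effector RBPJ, the ETS motif CCGGAAG and the E2F motifs TTTCCCGC and TTTGGCGC, none of which overlaps another. The ETS motif stood in 15.6% of the members' promoters, in 15.4% of those of all listed genes and in 6.91% of all promoters. The RBPJ core stood in 8.89% of members' promoters, 19.9% of listed genes' and 21.6% of all. The E-box stood in 8.89%, 8.65% and 6.02%, and the E2F motifs in 4.44%, 2.62% and 1.30%. A match describes these letters in this window and is not evidence of binding.

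Partners and related enzymes outside the rule were counted in the same fit. Of 41 listed genes 7 were higher and 6 lower in eMZB_WT, beside 14.6% and 12.7% of all genes, and 10 were higher and 7 lower in eMZB_KO, beside 14.2% and 13.2%. Limma called 0 with LSD1 loss in either cell type, beside 0.498% of all genes in TrB and 0.406% in eMZB. At an unadjusted p under 0.05 there were 4 in TrB and 1 in eMZB, beside 9.91% and 5.39%. The histone-binding subunits that PRC2 shares with other complexes rose, Rbbp7 from a mean of 18.1 to 32.7 in wild type (0.83, adjusted p = 2.89e-05) and Rbbp4 from 15.9 to 21.9 (0.44, adjusted p = 0.00196). Jarid2, a PRC2 cofactor, fell from 15.8 to 10.5 (-0.55, adjusted p = 0.00282), and Phf19, another, rose from 0.380 to 1.07 (0.58, adjusted p = 0.0106). Men1, the menin subunit that joins MLL proteins, fell from 11.8 to 8.34 (-0.45, adjusted p = 0.0129). All 5 were also called in the same direction in knockout.

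Members are long genes, and their changes were not evenly spread over length. Their median length behind the FPKM was 6407 bases, against 3044 for all listed genes. In wild type the called members that were lower had a median of 8626 bases and those that were higher 2346. Across the 43 members the Spearman correlation of length with the change was -0.40 in wild type and -0.29 in knockout, and across all listed genes -0.05 and -0.10. For LSD1 loss the members' correlation was -0.39 in both cell types, beside 0.02 in TrB and -0.08 in eMZB over all listed genes. These are descriptions across genes, which share libraries and are no replicates. With values adjusted for length, which was added as an alternative once the data had been seen, 10 members were called in wild type (7 higher, 3 lower), beside 28.6% of all genes, and 10 in knockout (6 higher, 4 lower), beside 27.3%, and 8 of the calls in each genotype were shared with the unadjusted ones. Kdm5b in wild type and Ash1l and Kdm5a in knockout lost their calls. Gained by limma were Kmt2d in wild type (0.32, adjusted p = 0.0391) and knockout (0.32, adjusted p = 0.0391). Kdm2a in wild type (0.43, adjusted p = 0.0172) and Suz12 in knockout (0.66, adjusted p = 0.0482) were gained as well.

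**Figure D4:**
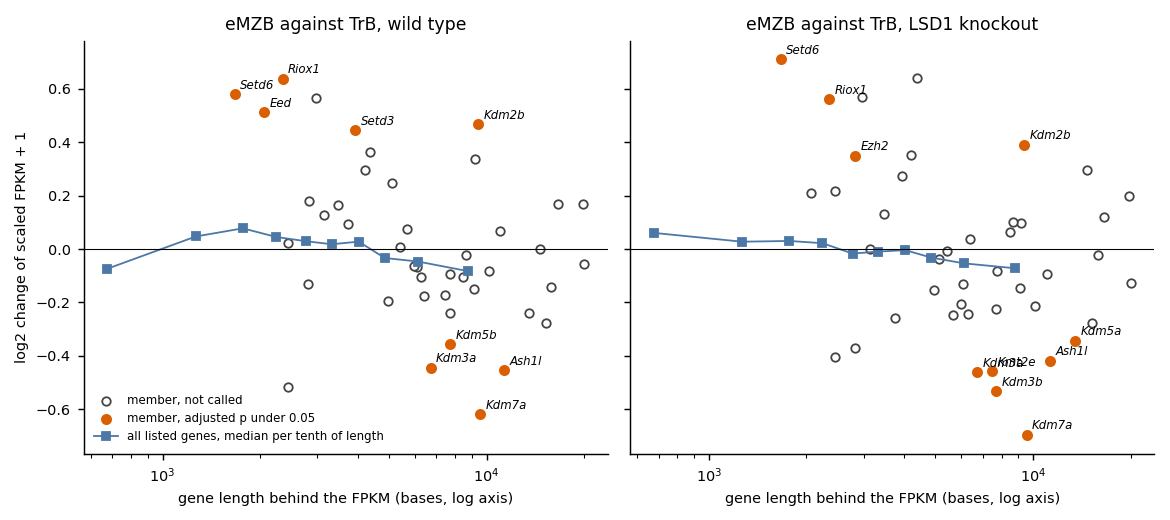
Log2 change between eMZB and TrB (y axis, scaled FPKM + 1) against the gene length behind the FPKM (x axis, bases, log scale), in wild type on the left and LSD1 knockout on the right. Circles are members, filled where called, and blue squares are medians of all listed genes in 10 bins of length, which lie between -0.08 and 0.08. Called members that are lower lie among the longer ones, whereas Setd6, Riox1 and Eed are short and Kdm2b is long and higher. The called wild-type falls change sign on the deposited scale.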

How the data were processed

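RNA of 12 libraries was made into cDNA with a SMART-Seq v4 kit and sequenced after Nextera XT preparation, per the labels' protocols. STAR and mm10 are named per the submitters' processing notes, and no version or counting tool is given in the sources used here. The file holds FPKM values deposited by the authors for 9842 genes, each with at least 1 FPKM in 3 or more libraries. Entrez IDs were matched to RefSeq symbols (9833 of 9842).

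FPKM was divided by median-of-ratios factors (0.613 to 2.14, geometric mean 1) over 9446 genes above 0 in every library, and log2(value + 1) was fitted with limma 3.58.1 (R 4.3.3; lmFit and eBayes with trend) with 4 group means and all 12 libraries. The 5 contrasts tested were LSD1 loss in each cell type, cell type in each genotype, and their interaction. The fit was also run on simulated data, in which only genes with more reads were changed, in TrB_KO alone. Those changes were larger than any of the members', so the run does not show how small changes fare. Whole reads were recovered from FPKM steps (tolerance 0.02) for voom. Alternatives changed the scale, pseudocount (0.1), filter (at least 5 FPKM in 3 libraries), libraries, weights, replicate block and length adjustment.

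Named members were those called in any contrast, the 3 highest and 3 lowest changes of each contrast, and the highest and lowest level of each class. Others are examples named after their values were seen. The members and lists were chosen with earlier results of these data known. Replicate numbers are shared by the groups, but the labels do not say what a number marks. Overlaps of exons came from GENCODE M21. The RefSeq promoter table matched 33 of 43 members.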

Additional observations from a re-analysis of the deposited data

How the results depend on the processing

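LSD1 loss and its interaction with cell type called 0 members under all alternatives run, leave-out fits included. On FPKM as deposited the cell type contrast called 6 members in wild type (all higher) and 0 in knockout, with 19, 15, 1896 and 460 genes called overall for LSD1 loss in TrB and eMZB and for cell type in wild type and knockout, against 49, 40, 2693 and 2695 after scaling. Signs were compared between the scales for named members only. Opposite as deposited were Kdm4a 0.36, Setd5 0.37 and Setd6 0.22 for LSD1 loss in TrB. For cell type in wild type they were Ash1l 0.31, Kdm3a 0.31, Kdm5b 0.34, Kdm7a 0.11 and Kdm8 0.094. For the interaction they were Ehmt1 -0.28 and Suz12 -0.18. As deposited the median of all 43 members was 0.57, 0.67 and -0.49 in these contrasts, in that order. The median gene moves with that scale. Leaving out each library gave 5 to 12 called members in wild type and 6 to 13 in knockout, and leaving out both wild-type libraries of low Kdm1a gave 4 in wild type. The cause was not tested. Upper-quartile scaling called 5 higher and 7 lower in wild type, weights by library 12 and 15 members, and voom 8 and 14. For these fits and those with libraries left out, the share of all genes called between cell types is not given here. Whether such counts moved apart from those of all genes thus cannot be read from them.

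With the replicate number as a block the same 9 and 10 members were called for cell type and 0 for the other contrasts, so pairing changed no call. Deviations of same-numbered libraries correlated over 0.1 in all 3 pairs only between TrB_KO and eMZB_KO (0.161, 0.106 and 0.292). In TrB_WT some members rested on as few as 19 reads, which limits their precision.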

Other observations

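Ratios of related members within a library do not depend on the scaling and are given as values, picked after their values were known and with no test. Ezh2 over Ezh1, the alternative catalytic subunits of PRC2, was 0.716 to 0.821 in TrB_WT against 0.854 to 1.05 in eMZB_WT, and 0.657 to 0.876 in TrB_KO against 1.03 to 1.21 in eMZB_KO, so within each genotype every eMZB library lay above every TrB library. Riox1 over Riox2, a pair of ribosomal oxygenases, was 0.243 to 0.623 in TrB_WT against 0.608 to 0.697 in eMZB_WT, where the ranges overlapped, and 0.264 to 0.454 in TrB_KO against 0.612 to 0.792 in eMZB_KO, where they did not. Ehmt2 over Ehmt1, which form the G9a and GLP dimer, was 0.784 to 1.43 in TrB_WT against 1.42 to 1.65 in eMZB_WT, where the ranges overlapped, and 1.22 to 1.51 in TrB_KO against 1.64 to 1.83 in eMZB_KO, where they did not. Kmt2d over Kmt2c, the enhancer H3K4 methyltransferases, was 0.699 to 0.840 in TrB_WT and 0.883 to 1.06 in eMZB_WT, without overlap.

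Single libraries often held the lowest or highest value of their group. The library labelled TrB_WT replicate 3 was the lowest of its group in 23 of 43 members, with Suz12 at 3.11 beside 7.31 and 7.17, Kmt5a at 1.21 beside 2.91 and 4.53, and Kdm4b at 4.08 beside 6.85 and 7.52. TrB_KO replicate 3 was the highest of its group in 28 of 43. Other libraries came near these counts, with TrB_KO replicate 1 lowest in 23, eMZB_KO replicate 3 lowest in 22 and TrB_WT replicate 1 highest in 24. Kdm8 was highest of its group in TrB_WT replicate 3 (4.03) and TrB_KO replicate 3 (4.24), beside 2.21 to 2.69 in the 4 other TrB libraries.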
